A study of Mus musculus with 4 samples.

Results

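Aggrecan, its link protein and hyaluronan form the large hydrated aggregates that let cartilage resist compression, and the 10 genes described here encode these parts and their relatives. They were chosen by name, with earlier results of these data known. The 10 are the lecticans (Acan, Vcan, Bcan, Ncan), the link proteins (Hapln1, Hapln2, Hapln3, Hapln4), the hyaluronan synthase Has2 and the hyaluronan receptor Cd44. All 10 were measured, each by a single probe set annotated to that gene alone, among 19938 genes tested. The cells were ATDC5, a mouse chondroprogenitor line. The day 15 group had 15 days of insulin, transferrin and selenite added to the medium. The day 0 group was kept undifferentiated in the basal medium of DMEM/F12 with fetal bovine serum, glutamine, antibiotics and ascorbic acid, which was also the base of the day 15 medium. Each group had 2 samples, each read on 1 array, and no group was cultured for 15 days without the supplement, so time, supplement and differentiation cannot be told apart. ATDC5 is a single cell line. Whether the 2 samples of a day were grown as separate cultures is not stated, so the p-values rest on a spread that may be technical.

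Lecticans are proteoglycans whose N-terminal domain binds hyaluronan and whose core carries chondroitin sulfate chains. A link protein binds the lectican and hyaluronan at the same time and makes the complex stable. Hyaluronan itself is a plain sugar polymer, spun out at the cell membrane by hyaluronan synthases and held at the cell surface by receptors such as CD44. In cartilage the usual partners are aggrecan and the link protein HAPLN1, versican is typical of condensing mesenchyme and other loose matrix, and brevican, neurocan, HAPLN2 and HAPLN4 are best known from brain.

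Of the 10 genes, 3 rose at day 15 and none fell (limma, adjusted p below 0.05 over all genes). Over all 19938 genes 1.72% were called, 1.30% higher and 0.411% lower at day 15, and 2425 genes had an unadjusted p below 0.05. The genes that rose were Hapln1, Acan and Vcan, and 7 members were not called. The median difference of the 10 was −0.04 log2, beside 0.02 for all genes, since most members lay near 0 and the 3 that rose lay far from it. By lack of overlap, 3 members had both day 15 arrays above both day 0 arrays, as did 22.3% of all genes, and 2 members (Ncan and Hapln2) had both below, as did 17.8% of all genes.

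**Figure D1:**
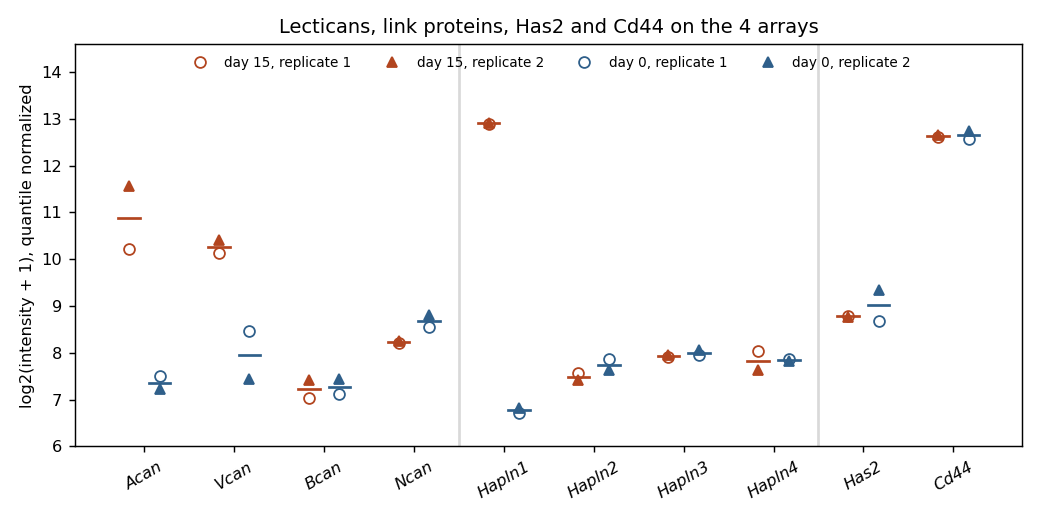
Level of each member gene on each array, as quantile-normalized log2(intensity + 1), with day 15 left of day 0 for each gene; open circles are replicate 1, filled triangles replicate 2, and short lines the means of 2 arrays. Hapln1, Acan and Vcan sit well above their day 0 values at day 15, while Cd44 lies between 12.56 and 12.74 on all 4 arrays.

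Hapln1, which encodes the link protein of cartilage, had the largest increase of all genes tested. Its probe set (10406519) read deposited intensities of 7800.6 and 7758.6 on the day 15 arrays, against 103.1 and 118.1 on the day 0 arrays. The groups lay far apart and the arrays of each day lay close together. On the quantile-normalized log2(intensity + 1) scale, which is the scale of every log2 value here, Hapln1 averaged 12.91 ± 0.02 at day 15 and 6.77 ± 0.07 at day 0 (SD, n = 2 arrays each). The difference was 6.14 ± 0.16 log2 (SE), or 70.5-fold (limma adjusted p = 0.000606). No detection call was available, so the day 0 level of Hapln1 may lie at background and the size of the fold is uncertain.

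Acan, the aggrecan core protein (probe set 10554249), read 1200.5 and 3042.5 at day 15, against 171.1 and 154.9 at day 0. Both day 15 arrays were well above day 0, but the day 15 arrays themselves differed widely. The difference was 3.53 ± 0.43 log2 (SE), with a 95% interval of 2.47 to 4.59 (limma adjusted p = 0.0233). Without a detection call, the day 0 mean of Acan, 7.36 log2, may lie at background too. Day 15 replicate 2 exceeded replicate 1 by 1.33 log2, a gap between these arrays that 0.727% of all genes exceeded, whereas for Hapln1 the gap was 0.02. With day 15 replicate 1 left out the difference in Acan was 4.20 log2, and with day 15 replicate 2 left out it was 2.87. Such fits take their spread from the day 0 arrays alone. They drop the gap between the day 15 arrays, so they cannot test whether the call withstands it. In bulk samples such as these, more cells making a transcript and more transcript per cell cannot be told apart.

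Vcan, which encodes versican (probe set 10410931), rose as well. It read 1120.6 and 1395.8 at day 15, against 327.3 and 178.3 at day 0. Here the day 15 arrays were close and the day 0 arrays were apart, with day 0 replicate 1 higher than replicate 2 by 1.03 log2. The difference was 2.32 ± 0.35 log2 (SE), or 5.01-fold, with a 95% interval of 1.45 to 3.20 (limma adjusted p = 0.0444). The call was lost without day 15 replicate 1 (2.47 log2) and without day 15 replicate 2 (2.18 log2). Those fits take their spread from the day 0 arrays alone, which were apart. They therefore cannot show that the call rests on the day 15 arrays. Without day 0 replicate 1 the difference was 2.84 log2, and without day 0 replicate 2 it was 1.81. There the spread comes from the close day 15 arrays alone. Vcan is spliced into isoforms with different chondroitin sulfate regions, and the probe set is annotated to 5 RefSeq mRNAs of the gene, so the isoforms were not told apart.

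Whether versican gave way to aggrecan was examined as the log2 ratio of Vcan to Acan within each array. Only changes of this ratio between arrays can be read, since brightness cannot be compared between probe sets. The ratio was −0.09 and −1.14 on the day 15 arrays, against 0.97 and 0.21 on the day 0 arrays. Acan on both day 0 arrays (171.1 and 154.9) and Vcan on day 0 replicate 2 (178.3) may lie at background. The day 0 ratios may therefore depend on background, which was not tested. It was lower on both day 15 arrays, by 1.21 on average (difference −1.21 log2). The ratios of the days did not overlap. A two-sided exact permutation test of 2 arrays against 2 cannot give less than p = 0.333, the value found here, so it cannot decide whether these lecticans rose unequally. Both genes themselves were higher at day 15.

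Bcan and Ncan, the lecticans of brain, were not called. Bcan read 122.1 and 179.7 at day 15, against 133.5 and 179.4 at day 0, and the groups overlapped (95% interval of the difference −0.59 to 0.48 log2). Ncan read 285.0 and 333.0 at day 15, against 349.9 and 446.9 at day 0, so both day 15 arrays were lower. Its difference was −0.44 ± 0.18 log2 (SE) and did not pass (limma adjusted p = 0.396).

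The other link proteins were not called either. Hapln2, the link protein of myelinated brain tissue, read 178.2 and 180.7 at day 15, against 220.2 and 203.8 at day 0, a difference of −0.25 log2 (95% interval −0.70 to 0.19). Hapln3, the member of the family found most widely outside brain, read 228.4 and 269.4 at day 15, against 231.5 and 270.4 at day 0. For Hapln3 the 95% interval of −0.47 to 0.34 log2 lies far below the change of Hapln1. Hapln4, a link protein of brain, read 249.1 and 211.2 at day 15, against 220.4 and 234.4 at day 0, and its groups overlapped (95% interval −0.51 to 0.47 log2). Bcan, Ncan, Hapln2, Hapln3 and Hapln4 all lay below the median level of all genes. No detection call was available, so their values may lie at background and a change at such levels could be understated. Of 9 measured neural and glial markers none was called between the days, and the mean of each over the 4 arrays lay below the same median. Mbp, a myelin protein gene, was above it on the replicate 1 arrays of both days, at 9.42 log2 at day 15 and 9.35 at day 0.

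Has2, the main hyaluronan synthase of mesenchymal cells, read 428.4 and 473.2 at day 15, against 386.4 and 641.4 at day 0. The day 15 arrays lay between the day 0 arrays on the log2 scale, and the difference of −0.24 log2 did not pass (95% interval −0.85 to 0.37, limma adjusted p = 0.850). Cd44, the cell surface receptor of hyaluronan, was bright on every array, at 6384.9 and 6441.0 at day 15, against 5952.0 and 6726.4 at day 0. The groups overlapped, and the difference was −0.01 ± 0.17 log2 (SE; 95% interval −0.43 to 0.40, limma adjusted p = 0.994). The probe set of Cd44 is annotated to 6 RefSeq mRNAs, so its splice forms were not told apart. Hapln4 and Cd44 lay so close to 0 that their sign turned on the deposited scaling.

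**Figure D2:**
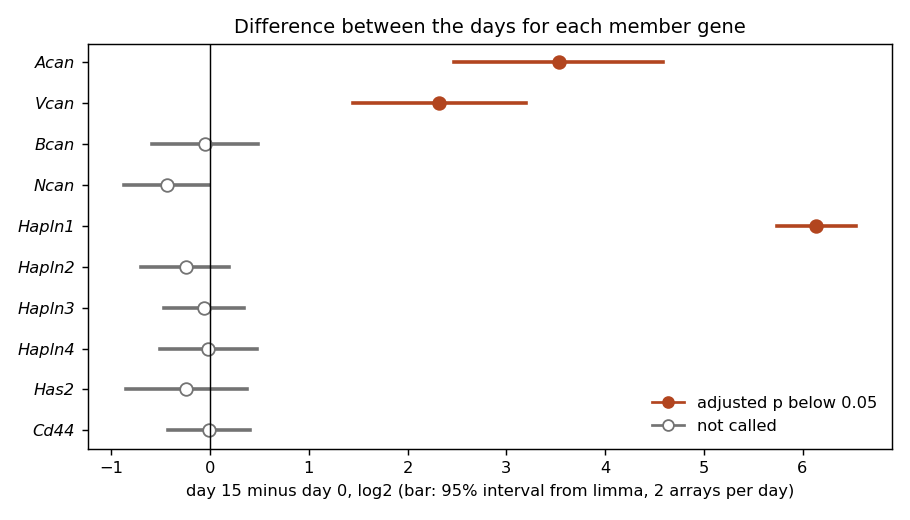
Difference between day 15 and day 0 in log2 for each member, with its 95% interval from limma (2 arrays per day); filled red points passed an adjusted p of 0.05 and open grey points did not. The intervals of Hapln1, Acan and Vcan start at 1.45 or higher, and those of the other members lie between −0.87 and 0.48.

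In the mouse genome each lectican gene lies beside a link protein gene, with no protein-coding gene between them in the RefSeq table of assembly GRCm38.p6: Vcan beside Hapln1 on chromosome 13, Acan beside Hapln3 on chromosome 7, Bcan beside Hapln2 on chromosome 3 and Ncan beside Hapln4 on chromosome 8. In the first pair both neighbours rose. In the pair on chromosome 7 Acan rose by 3.53 log2 while Hapln3 differed by −0.06 and was not called. In neither of the remaining pairs was a gene called. The aggrecan core and its cartilage link protein, which work in the same complex, are on different chromosomes.

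Sequences before the start sites of the 3 genes that rose are shown so that the promoters of the called members can be set side by side. Each is the 250 bases before the RefSeq start, 5′ to 3′ on the gene's own strand in GRCm38.p6: Hapln1 at chr13:89540386-89540635 on the plus strand, Acan at chr7:79052976-79053225 on the plus strand and Vcan at chr13:89742513-89742762 on the minus strand. Capitals mark matches, on either strand, to the CCAAT box (CCAAT), the GC box (GGGCGG), the TATA box (TATAAA) and a pair of SOX-type words (the first ACAAAG and the second ACAATG).
Hapln1: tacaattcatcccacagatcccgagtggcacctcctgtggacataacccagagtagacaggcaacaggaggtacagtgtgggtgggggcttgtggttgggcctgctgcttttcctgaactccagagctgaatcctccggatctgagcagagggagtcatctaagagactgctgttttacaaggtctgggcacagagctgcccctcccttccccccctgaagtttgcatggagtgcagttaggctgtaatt
Acan: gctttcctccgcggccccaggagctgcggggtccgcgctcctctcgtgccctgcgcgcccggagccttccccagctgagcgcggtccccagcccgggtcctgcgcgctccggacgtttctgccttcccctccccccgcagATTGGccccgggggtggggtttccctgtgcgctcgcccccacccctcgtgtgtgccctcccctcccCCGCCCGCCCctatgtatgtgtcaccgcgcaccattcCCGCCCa
Vcan: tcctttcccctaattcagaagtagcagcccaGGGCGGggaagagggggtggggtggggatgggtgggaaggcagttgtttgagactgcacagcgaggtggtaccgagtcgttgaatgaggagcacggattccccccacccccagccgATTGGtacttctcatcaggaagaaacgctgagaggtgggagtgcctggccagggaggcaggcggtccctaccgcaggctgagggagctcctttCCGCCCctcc

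The 3 windows differed in composition. That of Acan was 74.4% G and C with 26 CpG dinucleotides, that of Vcan 62.4% with 10, and that of Hapln1 54.4% with 2, beside medians of 52.4% and 6 over 32851 promoters of the table. The window of Acan held 1 CCAAT box and 3 GC boxes, of which some share letters, and that of Vcan 1 and 2. None of the 5 motifs was in the window of Hapln1, and none of the 3 windows held a TATA box or a SOX-type word. Over all promoters of this length, 33.8% held the CCAAT box, 32.7% the GC box, 12.4% the TATA box, 16.5% the first SOX-type word and 10.7% the second. These matches describe letters and not binding sites, and the table held a window for 8 of the 10 members.

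Around these genes, 48 of 52 listed genes of hyaluronan and lectican biology were measured, of which 1 rose and 2 fell. Of the 48, 14 had an unadjusted p below 0.05 (limma), as did 2425 of all 19938 genes. Their median difference was 0.01 log2, beside 0.02 for all genes. The share called, 3 of 48, can be read beside the 1.72% of all genes, but these lists too were chosen with earlier results known.

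Of the genes that make hyaluronan or its sugar precursors, none of 7 was called. The other synthases Has1 and Has3 differed by −0.09 and −0.07 log2, and both were dim. Gfpt2, an enzyme that opens the pathway to amino sugars, read 765.3 and 952.6 at day 15, against 468.4 and 322.7 at day 0 (1.07 ± 0.26 log2, SE, limma adjusted p = 0.159). Its sister enzyme Gfpt1 differed by 0.31 log2 (limma adjusted p = 0.787). Ugdh, which makes the glucuronic acid precursor of hyaluronan and chondroitin sulfate, was bright and differed by −0.27 log2 (limma adjusted p = 0.666).

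Among 8 measured genes of hyaluronan breakdown, Cemip fell and none rose. Cemip, which binds hyaluronan and is needed for its depolymerization by fibroblasts, read 2845.5 and 3496.8 at day 15, against 7858.7 and 8490.0 at day 0. Both day 15 arrays were well below day 0, and the difference was −1.38 ± 0.18 log2 (SE, limma adjusted p = 0.0305). Leaving out an array ended the call, whichever of the 4 it was (limma adjusted p 0.0577 to 0.117), although the difference stayed between −1.53 and −1.24 log2. Hexa, a lysosomal hexosaminidase subunit that trims sugar chains, read 8819.3 and 8515.2 at day 15, against 4702.6 and 4602.5 at day 0, a difference of 0.88 ± 0.16 log2 (SE) that did not pass (limma adjusted p = 0.0780; 0.0103 with trend and robust hyperparameters). The hyaluronidases Hyal2 and Hyal3 differed in opposite directions, by −0.56 and 0.54 log2, and neither was called.

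Of 14 other hyaluronan receptors and binding proteins 1 rose. Tnfaip6, a secreted protein that binds hyaluronan and moves heavy chains of inter-alpha-inhibitor onto it, read 2445.9 and 1656.5 at day 15, against 611.4 and 650.3 at day 0. Its difference was 1.62 ± 0.23 log2 (SE, limma adjusted p = 0.0373). The call held on leaving out day 15 replicate 2, but not on leaving out day 15 replicate 1 (limma adjusted p = 0.0944) or either day 0 array (0.0893 and 0.0937 for replicates 1 and 2), nor with median centring (0.0533). Itih2, which encodes such a heavy chain, read 1105.4 and 464.0 at day 15, against 225.0 and 176.8 at day 0 (1.77 ± 0.46 log2, SE, limma adjusted p = 0.185); without day 15 replicate 2 it passed, at 2.45 log2 (0.0340). The lymphatic receptor Lyve1 and the scavenger receptors Stab1 and Stab2 differed by 0.15, 0.03 and 0.17 log2 and were dim.

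None of 8 proteases that cut lecticans, counted with their inhibitor Timp3, was called, and 3 had an unadjusted p below 0.05 (2425 of all 19938 genes had). Those 3 went both ways: Adamts4 and Adamts9 differed by 1.84 and 1.22 log2 and Adamts5, the main aggrecanase of mouse cartilage, by −0.78 (limma adjusted p = 0.107, 0.112 and 0.243). Adamts4 passed without day 0 replicate 1, at 2.41 log2 (limma adjusted p = 0.0117). Of 5 measured ligands of the C-terminal lectican domain none was called, and 1 had an unadjusted p below 0.05. The tenascin Tnn differed most (−1.17 log2, limma adjusted p = 0.111; 0.0336 with trend and robust hyperparameters), and Tnr, the tenascin of brain, by 0.23 (0.782).

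Among 6 partners of CD44 at the membrane, Ank3 fell and none rose. Ank3, an ankyrin that ties membrane proteins to the spectrin skeleton, read 448.8 and 482.4 at day 15, against 1670.6 and 1075.5 at day 0, a difference of −1.59 ± 0.24 log2 (SE, limma adjusted p = 0.0457). The call was lost without day 0 replicate 1 (limma adjusted p = 0.0853), without either day 15 array (0.150 and 0.134), on the deposited scaling (0.0587) and with median centring (0.0632). Ezr, Rdx and Msn, which link CD44 to actin, differed by 0.39, −0.11 and −0.13 log2 and were not called. Cd74, a surface protein that pairs with CD44 in leukocytes, read 303.1 and 207.3 at day 15, against 1084.7 and 458.6 at day 0 (limma adjusted p = 0.246; 0.0489 without day 0 replicate 2, at −2.15 log2). Cd74 was lower in replicate 2 than in replicate 1 on both days, as most leukocyte markers were, and their part in its level was not tested.

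**Figure D3:**
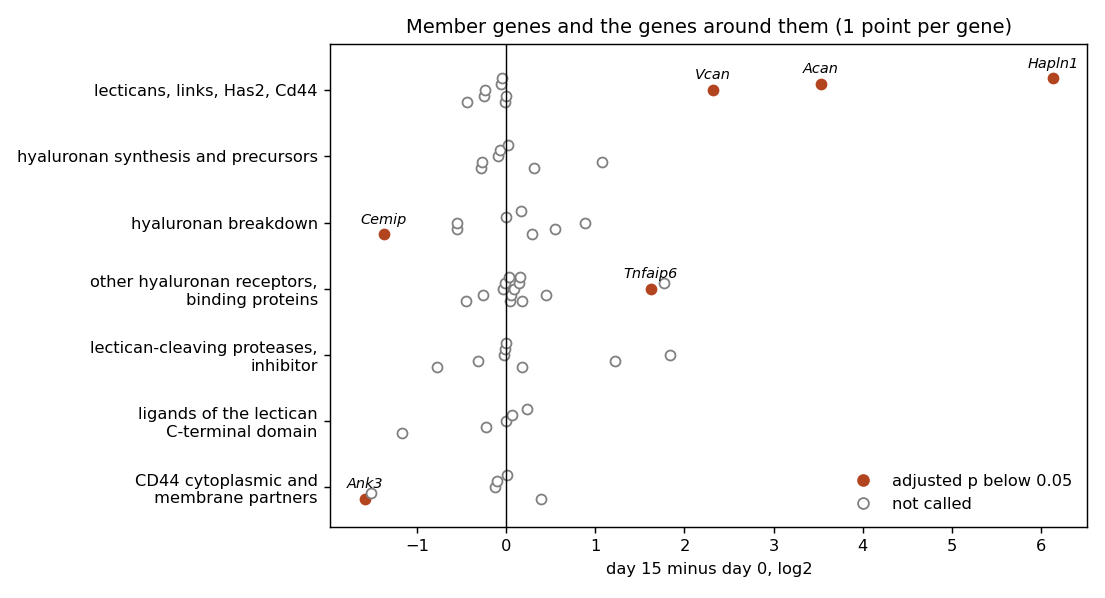
Difference between day 15 and day 0 in log2 for the 10 members and for the 48 genes measured around them, 1 point per gene in a row per list; filled red points passed an adjusted p of 0.05. Hapln1, Acan and Vcan stand to the right of all other genes shown, and Cemip and Ank3 are the called genes to the left of 0.

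The replicate arrays differed in other cell markers. Of 10 macrophage and leukocyte markers 8 were higher in replicate 1 than in replicate 2 on each day. Their summed intensity was 9724 and 3199 on the day 15 arrays of replicates 1 and 2, against 8642 and 2014 on the day 0 arrays. C1qb, a complement subunit made by macrophages, read 2224.2 and 55.3 at day 15, against 2622.6 and 71.7 at day 0. Mbp, of the neural and glial list, split in the same way, at 685.8 and 99.7 at day 15, against 626.8 and 96.5 at day 0. None of the 10 macrophage and leukocyte markers was called between the days, and none was at 0 on any array. Leukocytes also carry CD44, and the part of these markers in its level was not tested. Within the arrays of replicate 2 alone, with 1 array a day and no test, the differences were 6.10 log2 for Hapln1, 4.34 for Acan, 2.98 for Vcan, −0.57 for Has2 and −0.09 for Cd44, and within those of replicate 1 they were 6.18, 2.73, 1.67, 0.08 and 0.06.

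Some markers of chondrocytes, and of fibroblasts and osteoblasts, also differed between the day 15 arrays. Of 8 chondrocyte markers 2 rose at day 15 (Col2a1 by 2.17 and Matn1 by 2.83 log2), none fell, and 7 were higher in day 15 replicate 2 than in day 15 replicate 1. The same held for 6 of 6 measured fibroblast and osteoblast markers and for 44.4% of all genes. In those 6 the gap ran from 0.02 to 0.90 log2, the largest in Sp7, a transcription factor of osteoblasts. The limma adjusted p was 0.00433 for Matn1 and 0.0441 for Col2a1, whose call was lost on leaving out day 15 replicate 2 (0.0504) or either day 0 array (0.0689 and 0.103 for replicates 1 and 2). Of the markers listed for fibroblasts and osteoblasts 1 rose at day 15, Ibsp, by 5.36 log2 (limma adjusted p = 0.000606), more than Col2a1 or Matn1. The other 5 measured were not called. Col1a1, Col1a2 and Postn differed by 0.01, 0.08 and 0.20 log2, and Sp7 and Col3a1 by 0.81 and 0.88. Which cells made Ibsp was not tested. The summed intensity of the 8 chondrocyte markers was 10129 and 15638 on the day 15 arrays of replicates 1 and 2, against 7110 and 6342 on the day 0 arrays. On the day 15 arrays its largest terms were Sox9 (4933.8 and 6945.4) and Col2a1 (2508.4 and 4854.6), so the sum mostly follows these genes. Sox9 was not called between the days (limma adjusted p = 0.533). The part of the difference between the day 15 arrays in the level of Acan was not tested.

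**Figure D4:**
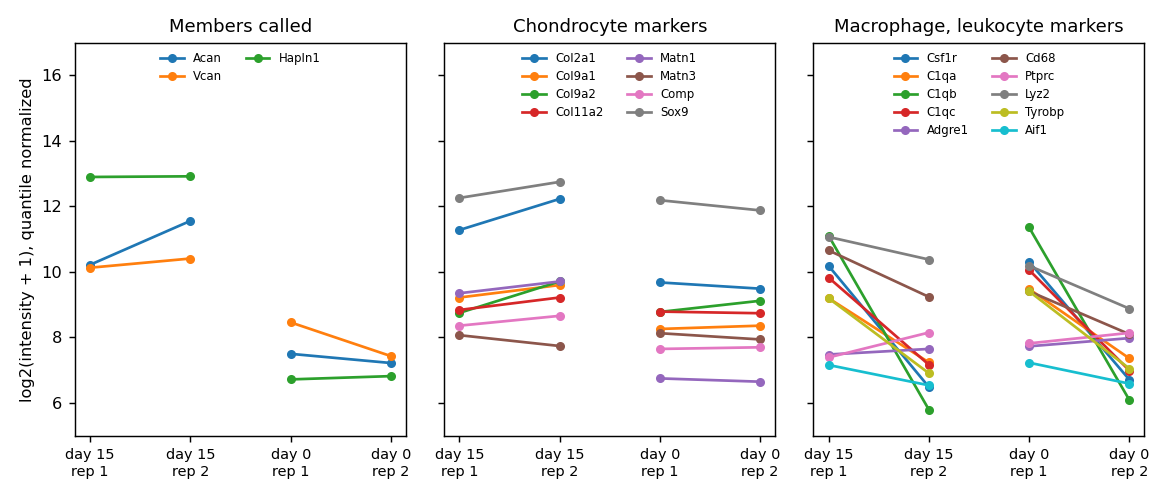
Level on each array, as quantile-normalized log2(intensity + 1), of the called members, of 8 chondrocyte markers and of 10 macrophage and leukocyte markers; lines join the replicates of a day. Acan and Col2a1 are higher in day 15 replicate 2 than in replicate 1, Hapln1 is level, and C1qb and Csf1r are high in replicate 1 of both days.

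The genes with the most similar course over the 4 arrays were found by the root mean square difference of log2 values, each gene centred on its own mean. For Acan they were Car3, a carbonic anhydrase (0.14 log2), the adhesion receptor Adgrd1 (0.25) and the amino acid transporter Slc36a2 (0.25). For Vcan they were the transporter Abca9 (0.083), Capn6 of the calpain family (0.097) and Bmf, a regulator of apoptosis (0.18). For Hapln1, whose increase no gene matched, the nearest were Prss35 (0.28), C1qtnf3 (0.33) and the bone sialoprotein gene Ibsp (0.39). With 4 arrays this likeness describes the size of a change and the spread of its replicates, and no gene was nearest to more than 1 of the 3.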

How the data were processed

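Total RNA of 4 samples was labelled with biotin and hybridised to 1-colour whole-transcript arrays, per the labels' protocols. The authors deposited 1 processed intensity per probe set and array, on a linear scale judged from values between 0.72 and 23103.3. How they corrected background, summarized probes and scaled arrays is not stated in the sources used here; the submitters' processing notes name the build mm9. Of 35512 probe sets, 21789 have 1 gene symbol, 1621 several and 12102 none in the platform annotation; those with 1 symbol were used, symbols were updated by gene identifier for 21698, and the brightest probe set of each gene was kept. The array medians differed by 0.20 log2, so log2(intensity + 1) was quantile normalized over all probe sets.

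The days were compared in R 4.3.3 by limma 3.58.1, with group as the only term of lmFit, then eBayes and Benjamini-Hochberg adjustment over 19938 genes. The precision is limited by the number of arrays. Data for this comparison were simulated for 19938 genes, of which a small part was changed in a single random draw. Changes of 1 log2 were found in 0% of cases, changes of 2 log2 in 82%, and those of 3 and of 4 log2 in 98% each. Of the calls, 3.5% were false. With few changed genes of each size, these rates are rough. The simulated errors were normal and independent between arrays. They lack the replicate differences that the days share here, so these rates may not hold for the real arrays. Members and lists were chosen with earlier results of these data known. The text names all members, the called genes of each pathway list (or the 2 largest differences where fewer than 2 were called) and, for each called member, the 3 genes with the nearest course; Has1, Has3, Ugdh, Hyal2, Hyal3, Lyve1, Stab1, Stab2, Adamts5, Timp3, Ezr, Rdx, Msn, Col2a1, Matn1, C1qb, Csf1r, Mbp and Sp7 were added after their values were seen. Of 5 measured adipocyte markers none was called, and of 6 measured fibroblast and osteoblast markers 1 rose (Ibsp). Promoters came from the RefSeq table of GRCm38.p6. Alternatives changed scaling, variance model, filter, probe set rule, pseudocount, replicate block, threshold and arrays used; in fits without 1 array the normalization of all 4 was kept. Plots used matplotlib 3.10.9 under Python 3.11.15.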

Additional observations from a re-analysis of the deposited data

How the results depend on the processing

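Hapln1 stayed called under all 14 alternatives, at 5.96 to 6.19 log2. Acan stayed positive in all 14 (2.87 to 4.20 log2) and lost its call only when all 35512 probe sets were tested together (3.53 log2, limma adjusted p = 0.144). Vcan stayed positive (1.81 to 2.84 log2 with 1 array left out) and lost its call there (2.32 log2, 0.201), against a difference of 0.5 log2 (2.32 log2, 0.111) and without either day 15 array; a stricter adjustment and fewer samples are part of these alternatives. The members called numbered 3 in the main analysis, 1, also 1 higher, with all probe sets tested together, and 2 to 3 with 1 array left out. No member was called lower in any alternative. The pathway genes called numbered 1 with median centring, 5 with trend and robust hyperparameters, 0 with all probe sets, 0 against 0.5 log2 and 0 to 2 with 1 array left out. All genes called, 342 in the main analysis, numbered 156 against 0.5 log2 and 178 to 284 with 1 array left out. In such fits the day with 1 array takes its spread from the day with 2. With all 35512 probe sets tested together, 74 were called. That is a count of probe sets and not of genes, so it cannot be set beside the 342 genes. Signs turned, without a call, with 1 array left out for Bcan (−0.24 to 0.14 log2), Hapln4 (−0.22 to 0.19), Has2 (−0.57 to 0.08), Cd44 (−0.10 to 0.07) and Gfpt1 (−0.03 to 0.64), and on the deposited scaling for Hapln4 (0.01) and Cd44 (0.02). The cause was not tested. The ratio of Vcan to Acan differed by −1.73 to −0.68 log2 with 1 array left out. Samples of the days share replicate numbers, and with the number as a replicate block 628 genes and 7 pathway genes were called while the members called stayed at 3; the pathway genes gained were Hexa (limma adjusted p = 0.0486), Itih2 (0.0317), Adamts9 (0.0306) and Cd74 (0.0255), and deviations of same-numbered arrays correlated at 0.403 across genes, but the labels give no pairing. The results on pathway genes and within replicate numbers were added after seeing the data.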
